A study of Mus musculus with 6 samples.

Results

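The LIM homeobox genes examined here were the 10 members Lhx1, Lhx2, Lhx3, Lhx4, Lhx5, Lhx6, Lhx8, Lhx9, Isl1 and Isl2. They were found as the non-control probes whose RefSeq accession belongs to one of these genes, which gave 14 of the 39429 probes on the array. Lhx6 and Lhx9 had 3 probes each, and each of the other members had 1. The tissue was the head with the first branchial arch, which forms the jaws, of mouse embryos at embryonic day 9.5. The groups were 3 wild type pools and 3 pools from embryos null for Arid3b, which encodes a nuclear factor that binds AT-rich DNA, each pool of 4 embryos hybridised to 1 one-colour Agilent array. The labels give no other allele, strain or treatment for either group, and they name no litters, so a p-value here compares the genotypes against the variation among these 6 pools only.

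LIM homeodomain proteins join a DNA-binding homeodomain to LIM zinc fingers, through which they bind the cofactor Ldb1. Close relatives come in pairs that are often expressed in the same tissue: Lhx6 and Lhx8 in the mesenchyme of the first arch, Lhx3 and Lhx4 in Rathke's pouch, the oral ectoderm that forms the anterior pituitary, and in motor neurons. Lhx2 is a gene of the eye field and forebrain and Lhx9 is its closest relative, Lhx1 and Lhx5 act in early head and forebrain development, and Isl1 and Isl2 mark sensory ganglia and motor neurons, with Isl1 also in the second heart field.

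Shown here, for the 3 members picked because their signal differed most between the groups, are the sequences just upstream. They are the 250 bases before the annotated start, 5′ to 3′ on the gene's strand, from RefSeq (build GRCm38.p6), with capitals marking ATCAAA or its reverse complement, letters of the AT-rich kind that Arid3 proteins bind.
Lhx8, chr3:154330561-154330810, minus strand: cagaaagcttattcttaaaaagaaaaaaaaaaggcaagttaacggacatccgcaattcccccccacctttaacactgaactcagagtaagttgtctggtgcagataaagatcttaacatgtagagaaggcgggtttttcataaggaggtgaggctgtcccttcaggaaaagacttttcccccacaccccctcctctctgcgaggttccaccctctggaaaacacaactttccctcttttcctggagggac
Lhx3, chr2:26208250-26208499, minus strand: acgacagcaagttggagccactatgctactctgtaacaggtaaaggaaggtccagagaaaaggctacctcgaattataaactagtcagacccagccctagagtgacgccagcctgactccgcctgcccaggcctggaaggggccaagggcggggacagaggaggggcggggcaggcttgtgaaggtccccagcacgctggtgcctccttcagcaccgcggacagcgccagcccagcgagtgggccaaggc
Lhx4, chr1:155742028-155742277, minus strand: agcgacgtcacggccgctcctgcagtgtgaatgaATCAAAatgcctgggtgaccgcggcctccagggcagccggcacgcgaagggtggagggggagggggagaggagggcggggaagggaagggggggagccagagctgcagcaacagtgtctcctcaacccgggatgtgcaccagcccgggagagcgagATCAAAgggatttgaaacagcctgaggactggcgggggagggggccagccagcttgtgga
Lhx4 held ATCAAA at 216 and 60 bases before its start, and the sequences of Lhx8 and Lhx3 held none. Lhx3 has another upstream entry, not printed here, which held none either. Of 13 upstream entries for 9 of the 10 members (Lhx5 was not matched), 2 held ATCAAA on either strand, against 10.6% of 32851 entries of all genes. None of the 13 held ATTAAA (12.7% of all entries) or TAATTA, the core bound by many homeodomains (4.84%); both strands were searched, and matches of different motifs could overlap. These counts describe letters in a short window only.

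Values are log2 signal relative to the 75th percentile of the same array, and each difference is given as null minus wild type, with limma's standard error after the ± sign and n = 3 arrays in each group. As a check of the labels, all 3 Arid3b probes were lower on every null array than on any wild type array, with differences of -1.19 ± 0.29, -2.33 ± 0.16 and -1.37 ± 0.30 and limma adjusted p of 0.0332, 7.59e-04 and 0.0224. The second Arid3b probe was at -3.14, -3.19 and -2.86 in wild type replicates 1, 2 and 3 and at -5.43, -5.24 and -5.51 in the null replicates, and it was called under every alternative run. The first lost its call without wild type replicate 2 or any 1 null replicate (limma adjusted p up to 0.103), with quantile normalization (0.0579), with the deposited table (0.0701) and with no filter on dim probes (0.0835). The last lost its call without null replicate 2 or 3 (up to 0.0869), with no filter (0.0619) and with normexp background correction (-0.50, 0.0944). The sources used here do not say which part of the gene is deleted, and a probe outside it would check nothing. Of the non-control spots 67.9% to 70.3% were well above background on each array and none was saturated. A slide, read in 1 scan, carried both arrays of a replicate number, and the null array sat in position 2 each time, which leaves array position and genotype impossible to tell apart.

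Of the 14 probes 13 passed the filter on dim probes; Lhx4 and the second Lhx6 probe passed through the wild type arrays alone, where they are high, so counts over the 13 lean toward lower calls. In null heads 4 were called lower and 0 higher at an adjusted p under 0.05 in limma (7 had an unadjusted p under 0.05, all of them lower), where 8.58% of all 26288 tested probes were called lower and 9.38% higher. The 4 probes belong to Lhx8, Lhx4, Lhx3 and Lhx2. In either direction 18% of all tested probes were called. Without wild type replicate 3, 7 member probes were called, but calls across the array also rose, from 4720 to 7622 (3828 of them lower). The second Lhx6 probe was among those 7, though it was well above background on no null array. Over the 11 probes well above background on all 6 arrays, which leave out Lhx4, 3 were called lower, against 9.01% of all 24514 such probes. The median difference over these 11 was -0.51 against -0.06 over all such probes, and the differences ran from -3.15 to -0.06. All 11 were below 0, as were 55.3% of all such probes. Null arrays all lay below the wild type arrays for 5 of the 11, as they did for 20.6% of all such probes, and above them for 0 of the 11, as they did for 17.7%. Signals in a dissected head cannot separate fewer cells of a type from less RNA per cell.

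**Figure D1:**
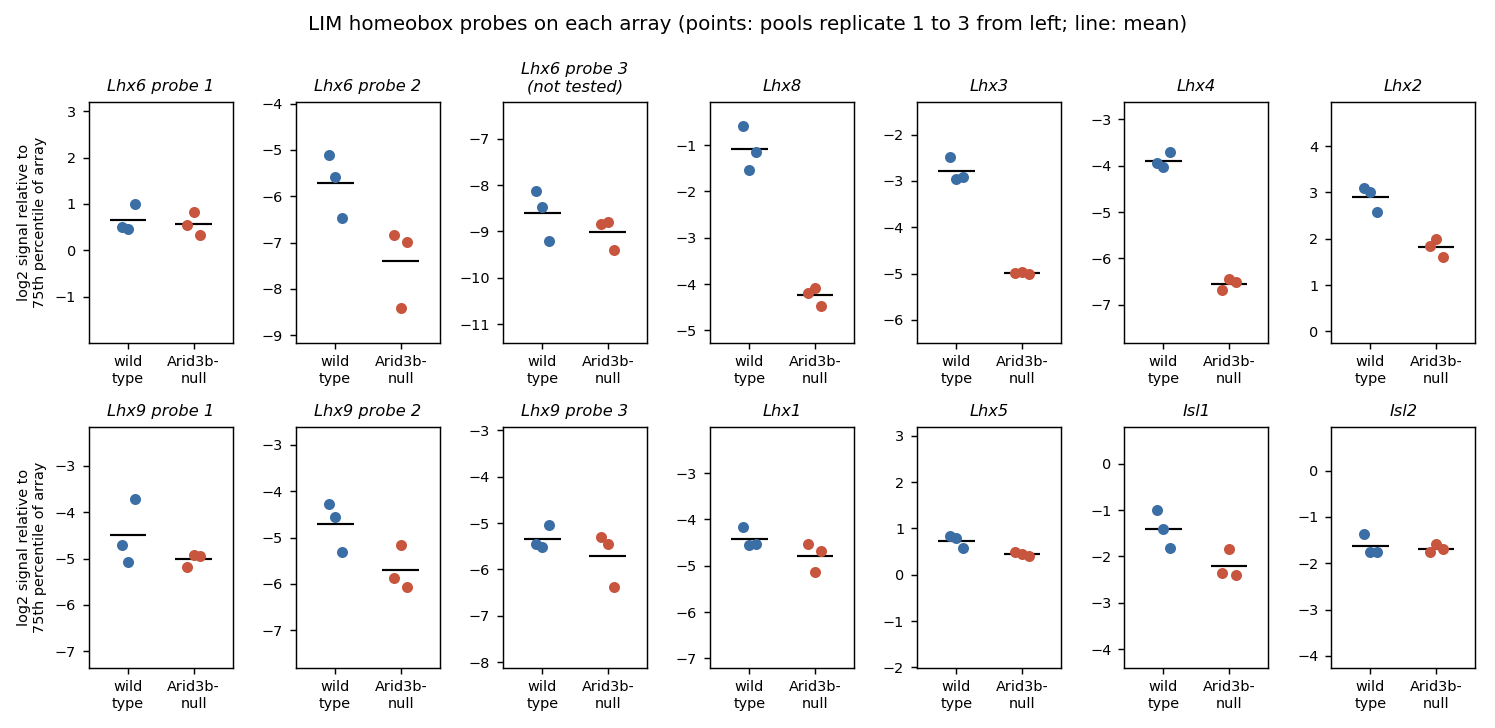
Log2 signal relative to the 75th percentile of the array (vertical axes, each spanning the same range) for the 14 LIM homeobox probes, with a point for each pool and a line at the group mean. The groups lie far apart for Lhx8, Lhx3 and Lhx4 and overlap for the brightest Lhx6 probe and for Isl2.

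Between the paralogues of the first arch the readouts parted. Lhx8, a homeodomain factor of arch mesenchyme needed for palate development, stood at -0.58, -1.54 and -1.14 in wild type replicates 1, 2 and 3 and at -4.19, -4.07 and -4.46 in the null replicates. Every null array was below every wild type array, by more than the whole spread within either group. The null signal was 11.2% of the wild type signal (95% interval of the fold, 5.82 to 13.6 times lower), with a limma adjusted p of 0.00136. With normexp background correction (offset 50) the Lhx8 difference was -2.17, smaller than that interval holds and still called (adjusted p of 3.72e-04). On the processed scale before scaling, the Lhx8 spot fell from 456, 245 and 299 to 37.9, 37.2 and 44.3, still well above background on all 6 arrays. The Lhx8 difference was -3.62, -2.53 and -3.32 within slides 1, 2 and 3.

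Lhx6, its paralogue, was read by 3 probes. The brightest probe was at 0.49, 0.45 and 0.99 in wild type heads and at 0.54, 0.82 and 0.34 in null heads. The groups overlapped, and the Lhx6 difference of -0.08 ± 0.21 was not called (limma adjusted p of 0.830, 95% interval -0.58 to 0.42). A second Lhx6 probe was at -5.10, -5.58 and -6.47 in wild type heads, well above background on all 3 arrays, and at -6.83, -8.41 and -6.98 in null heads, well above background on none. It was therefore at least 2.15-fold lower in null heads, where each null array counts at its own signal or at the dimmest signal well above background, whichever was higher, and the fit did not call it (adjusted p of 0.0579). Its null values give only this bound. The third Lhx6 probe, which names another transcript of the gene, was not well above background on any array, so no level or test is given for it. The brightest and the second probe are listed for the same transcript. Which transcripts each Lhx6 probe detects was not tested.

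Both pituitary paralogues were lower in null heads. Lhx3, required for Rathke's pouch to grow and for most hormone cells of the anterior pituitary, was at -2.49, -2.96 and -2.92 in wild type and at -4.99, -4.97 and -5.02 in null heads. The 3 null pools lay within a much narrower range than the wild type pools and below all of them. The Lhx3 difference was -2.20 ± 0.17 (adjusted p of 0.00116 in limma), 4.59-fold lower, and it was -2.50, -2.01 and -2.09 within slides 1, 2 and 3. Lhx4, which acts with Lhx3 in the pouch, was at -3.95, -4.04 and -3.71 in wild type and at -6.68, -6.44 and -6.51 in null heads. Its null arrays were again all lower, and the probe was well above background on 2 of the 3, so it entered the test through the wild type arrays. The Lhx4 difference was -2.65 ± 0.16 (limma adjusted p of 6.65e-04, and 0.00507 with no filter on dim probes), and it was -2.73, -2.40 and -2.80 within slides 1, 2 and 3. Both probes are dim, and with normexp the differences were smaller at -1.07 for Lhx3 and -0.85 for Lhx4, both still called (adjusted p of 0.00275 and 0.0114).

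**Figure D2:**
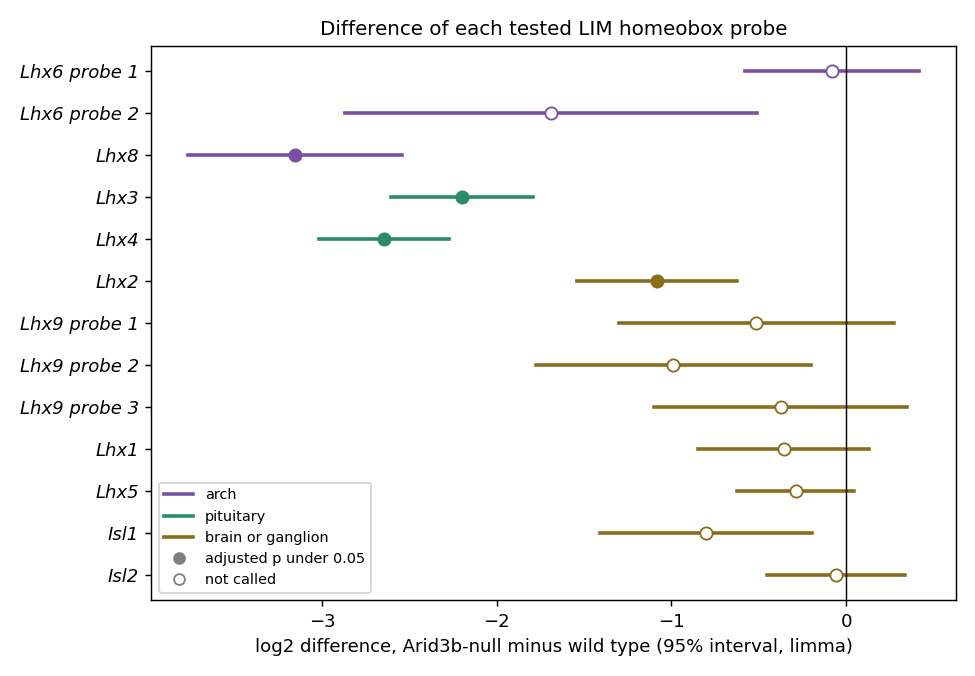
Log2 difference, Arid3b-null minus wild type (horizontal axis), with its 95% interval from limma for the 13 tested probes, coloured by role. Filled points are called at an adjusted p under 0.05: Lhx8 at -3.15, Lhx4 at -2.65, Lhx3 at -2.20 and Lhx2 at -1.08. The second Lhx6 probe was well above background on no null array, so its point stands for a bound only.

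Among the 6 brain and ganglion members 1 of 8 probes was called, where 8.58% of all tested probes were called lower and 9.38% higher. Lhx2, needed for the eye and for forebrain growth, was at 3.10, 3.01 and 2.58 in wild type and at 1.84, 1.99 and 1.62 in null heads. The groups did not overlap, and the difference of -1.08 ± 0.19 left 47.2% of the wild type Lhx2 signal (adjusted p of 0.0118 in limma). The call was lost narrowly without null replicate 1 (0.0516) or null replicate 3 (0.0509). Lhx9, its relative, did not pass on any probe: the differences were -0.51 ± 0.34, -0.99 ± 0.33 and -0.37 ± 0.31 from the brightest to the dimmest. On its brightest probe wild type replicate 3 stood at -3.72 and all the other arrays between -5.17 and -4.70. The second Lhx9 probe, of another transcript, passed with the slide as a block (adjusted p of 0.0472), without wild type replicate 3 (0.0194) and with array weights (0.00145).

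Isl1, a factor of cranial sensory and motor neurons and of heart progenitors, was measured by 10 spots of 1 probe on each array. It was at -0.99, -1.40 and -1.81 in wild type and at -2.36, -1.85 and -2.41 in null heads. The groups lay apart by only a small margin, between wild type replicate 3 and null replicate 2, and the difference of -0.80 ± 0.26 did not pass (limma adjusted p of 0.0730, 95% interval -1.41 to -0.20). It passed without wild type replicate 3 (-1.01, adjusted p of 0.0223) and with array weights (0.00227). Isl2, of motor and sensory neurons, was at -1.36, -1.76 and -1.76 in wild type and at -1.77, -1.59 and -1.69 in null heads, overlapping throughout. Its difference of -0.06 ± 0.17 had a 95% interval of -0.45 to 0.34, which allows at most a 1.37-fold fall. Isl2 shares chromosome 9 with Arid3b, with 35 protein-coding genes between them in the RefSeq order.

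Lhx1 and Lhx5, relatives that act in the early head organiser and hypothalamus, gave small differences. Lhx1 was at -4.17, -4.56 and -4.54 in wild type and at -4.54, -5.13 and -4.68 in null heads, with overlap and a difference of -0.36 ± 0.21 (adjusted p of 0.276 in limma). Lhx5 was at 0.83, 0.79 and 0.58 in wild type and at 0.49, 0.44 and 0.41 in null heads. Its groups lay apart, but by little: the difference of -0.29 ± 0.14 was not called (adjusted p of 0.205, and 0.0137 with array weights), and its 95% interval of -0.63 to 0.05 leaves out a fall of 2-fold.

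The paralogue pairs were then set against each other on the same arrays, as the log2 value of one gene minus that of the other (brightest probe of each). With 3 arrays against 3 the exact permutation test cannot go below p = 0.1, so none of the 5 pairs could be called. Lhx8 fell further than the brightest Lhx6 probe by 3.08 ± 0.34 on the log2 scale, and this gap was 3.66, 2.90 and 2.67 within slides 1, 2 and 3 (exact two-sided p of 0.1, adjusted 0.267 over 8 comparisons, of which 5 are pairs and the others set probes of 1 gene against each other). For Isl1 against Isl2 the gap was -0.75 ± 0.20, with Isl1 lower on each slide (-0.97, -0.61 and -0.66; exact p of 0.1, adjusted 0.267). The difference of Lhx4 exceeded that of Lhx3 by 0.45 ± 0.21 (exact p of 0.1, adjusted 0.267), and this order turned with normexp, where Lhx3 minus Lhx4 was -0.23. The Lhx4 probe was well above background on only 2 of the 3 null arrays, so the size of this gap rests on values near background. Lhx1 and Lhx5 stood -0.07 ± 0.20 apart (exact p of 0.8), and Lhx2 and Lhx9 stood -0.57 ± 0.57 apart (exact p of 0.4), with opposite signs between slides.

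**Figure D3:**
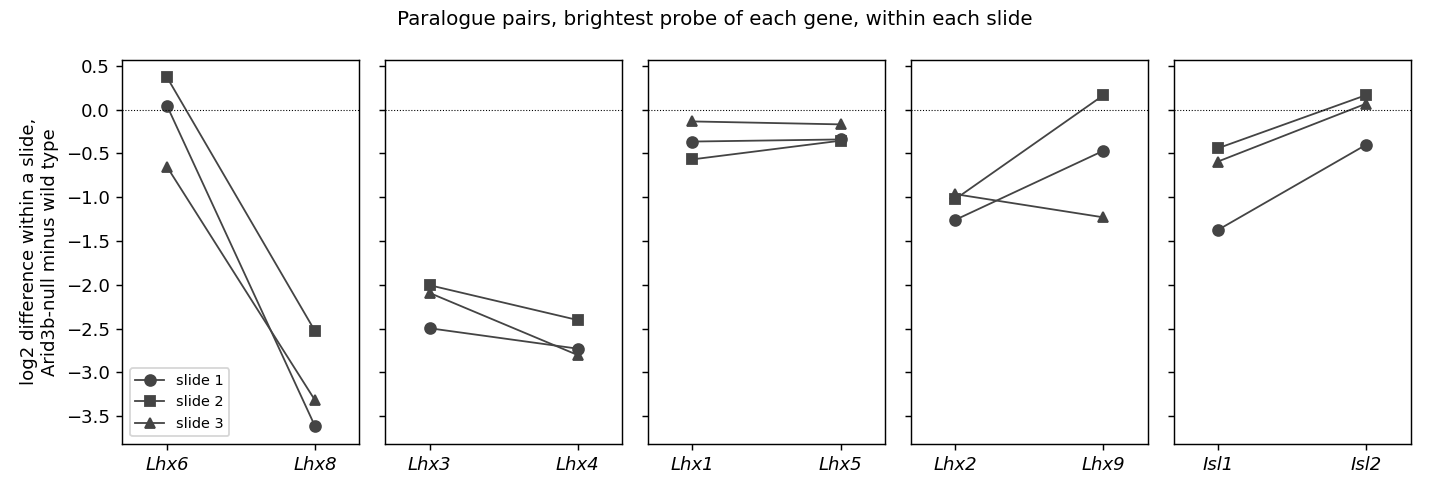
Log2 difference within a slide, Arid3b-null minus wild type (vertical axis), for the brightest probe of each gene in the 5 paralogue pairs, with a line for each of the 3 slides. The lines for Lhx6 and Lhx8 drop by 2.67 to 3.66, while both Lhx3 and Lhx4 lie at -2.01 or below on every slide.

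The other genes with which LIM homeodomain proteins work were measured too. Of 12 cofactor, LIM-only and remaining LIM homeodomain genes, 2 were called higher, 1 lower and 9 neither, with a median of 0.23 against -0.04 over all named genes, of which 10.5% were called higher and 9.21% lower. Ldb2, a cofactor that binds LIM domains, rose (0.80 ± 0.19, adjusted p of 0.0277), as did Lmx1a, a LIM homeodomain gene of the dorsal neural tube (0.63 ± 0.15, 0.0268, and 0.0531 with the slide as a block). Ssbp3, which partners Ldb proteins, fell (-0.73 ± 0.17, 0.0290). With 1 array left out, Lmx1a and Ssbp3 kept their limma calls only without wild type replicate 3 (adjusted p up to 0.110 and 0.0930 otherwise), and Ldb2 lost its call without wild type replicate 1 or 2 or null replicate 1 or 2 (up to 0.0968).

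Genes of the first arch, where Lhx6 and Lhx8 act, split: of 25 measured, 7 fell and 5 rose, with a median of -0.17. Hand2, a factor of the ventral arch, fell by 2.74 ± 0.29 on the log2 scale (adjusted p of 0.00267 in limma) and Barx1, of arch mesenchyme that forms molars, by 2.34 ± 0.26. Bmp4, a signal from arch epithelium, rose (0.87 ± 0.14, adjusted p of 0.00833), as did Ednra, the endothelin receptor of arch crest cells (0.67 ± 0.14), and Alx4 (0.76 ± 0.16), which was not called with normexp. Fgf8, the epithelial signal that induces Lhx6 and Lhx8, was called higher (0.65 ± 0.16, adjusted p of 0.0301, and 0.0512 with the slide as a block). Ednra and Alx4 lost their limma calls without wild type replicate 2 or any 1 null replicate (adjusted p up to 0.0837 and 0.0881), and Fgf8 without any 1 array but wild type replicate 3 (up to 0.125). Markers of first arch mesenchyme were all well above background, with 3 of 8 lower and 1 higher, and their summed signal ran from 7.30 to 11.4 times the 75th percentile in wild type and from 7.03 to 8.54 in null heads. Their part in the Lhx8 difference was not tested.

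Of 16 measured pituitary and infundibulum genes 6 fell and 2 rose, with a median of -0.24. Pitx1, a homeobox gene of oral ectoderm and pouch, fell by 1.10 ± 0.15 (adjusted p of 0.00494 in limma), Tbx3, of the ventral hypothalamus, by 0.92 ± 0.16 and Six6, of the pituitary and eye, by 0.93 ± 0.17. Bmp4 and Fgf8, which signal from the infundibulum to the pouch, are the 2 that rose, with the values given above. Hesx1, the early repressor of the pouch and forebrain, chosen after its value was seen, fell by 1.18 ± 0.23 (adjusted p of 0.0148) and was not called with normexp. Without null replicate 2 or 3 the adjusted p of Six6 was 0.0564 or 0.0517, and Hesx1 lost its limma call without wild type replicate 1, null replicate 1 or null replicate 3 (up to 0.0660). Of 8 markers of oral and surface ectoderm 1, Pitx1, was lower and none was higher, while Krt18 and Trp63 differed by 0.37 ± 0.36 and 0.02 ± 0.23. Without wild type replicate 2 or 3, 1 was called higher. The summed signal of these ectoderm markers was 26.9, 52.3 and 27.9 in wild type replicates 1, 2 and 3 and 37.4 to 40.1 in null heads, with replicate 2 alone above the null arrays. Their part in the Lhx3 and Lhx4 differences was not tested.

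In cranial ganglia and motor neurons, where Isl1 and Isl2 act, 5 of 21 measured genes fell and 2 rose, with a median of -0.36. Among the 5 was Neurod4, well above background on 1 null array, which entered the test through the wild type arrays. With normexp Neurod4 was not called (-0.34, limma adjusted p of 0.227). The neuronal RNA-binding gene Elavl3 fell by 1.27 ± 0.17 (adjusted p of 0.00504 in limma) and Nhlh2, a factor of developing neurons, by 1.38 ± 0.22. The neurotrophin receptor gene Ntrk3 rose (1.44 ± 0.16), and Phox2a, a homeobox gene of cranial neurons, rose (0.90 ± 0.17, adjusted p of 0.0143, and 0.0628 or 0.0598 in limma without null replicate 1 or 2). Neuron markers were lower in 4 of 8 and higher in none, with summed signals of 12.0 to 16.9 in wild type and 8.36 to 10.2 in null heads. Only 1 was called lower with no filter on dim probes or with the slide as a block, and 1 without wild type replicate 1, null replicate 1 or null replicate 3 (2 without null replicate 2). Heart markers, which bear on Isl1, were called in 0 of 9 (limma; Myl7 was not measured) with a median of -0.72, and in 4, all lower, without wild type replicate 1. Their summed signal was 1.48, 5.54 and 2.32 in wild type replicates 1, 2 and 3 and 2.05 to 2.29 in null heads. The part of neuron and heart tissue in the Isl1 difference was not tested. Of 18 measured genes of forebrain, eye field and diencephalon, where Lhx2, Lhx5 and Lhx9 act, 1 fell and 0 rose, with a median of 0.26. The gene that fell was Vax1, of the optic stalk (-1.37 ± 0.19, adjusted p of 0.00534, and -1.37 on its other probe). Markers of forebrain and midbrain had summed signals of 27.0 to 31.8 in wild type and 32.3 to 36.4 in null heads. Their part in the Lhx2 difference was not tested.

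The genes whose values over the 6 arrays were most like those of Lhx8, by Pearson correlation and with one probe per gene, were Dynlrb1 (0.999), Fbp1 (0.998), Ift74 (0.997), Brcc3 (0.997) and Thoc1 (0.997). They are a description only, since the 6 points lie in 2 separate groups and 738 of 14392 genes exceeded 0.95. Their own differences, -0.41 to -1.68, were all smaller than that of Lhx8. For the brightest Lhx6 probe the closest genes were Snap23 (0.986), Tacr2 (0.983), Cldnd1 (0.983), Oprm1 (0.975) and Hexim2 (0.973), none of them called in the comparison.

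Wild type replicate 2 had the highest heart and ectoderm signal. Of 6 measured trunk markers 3, Hoxb7, Hoxb8 and T, were called higher in null heads, and they entered the test through the null arrays, since on the 3 wild type arrays they were well above background on 0, 2 and 2. With normexp 1 was called, without null replicate 1, 2 or 3 it was 0, 1 and 1, and the summed trunk signal was 0.09 to 0.18 in wild type and 0.23 to 0.27 in null heads. Second arch and hindbrain markers were called higher in 2 of 7 (0 without null replicate 1 or 3) and lower in 0. With the slide as a block, 2 were called lower. The median difference of these 7 markers was nevertheless below 0, at -0.62. Their summed signal was 1.654 to 2.254 in wild type and 1.297 to 1.626 in null heads. Erythroid markers were called lower in 1 of 7 (0 with the block) and endothelial markers called in 0 of 7 (limma). Without wild type replicate 2 the differences of Lhx8, Lhx3, Lhx4 and Lhx2 were -3.38, -2.28, -2.72 and -1.02, all called.

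**Figure D4:**
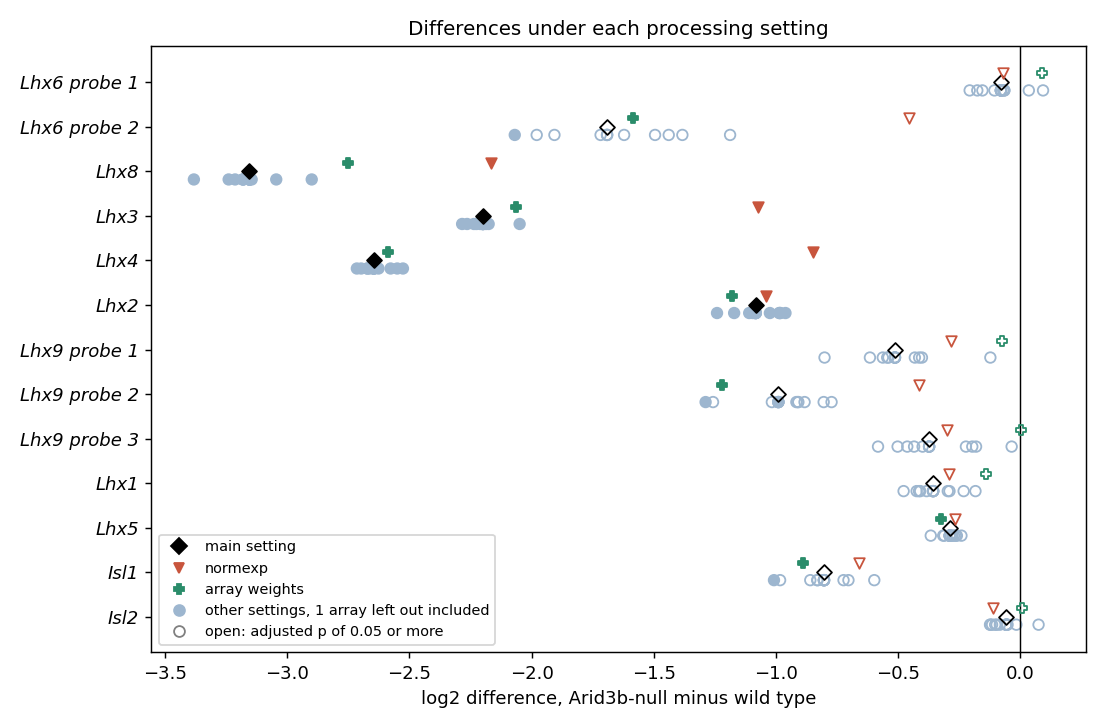
Log2 difference, Arid3b-null minus wild type (horizontal axis), of the 13 tested probes under the main setting and each alternative, with filled symbols where the adjusted p was under 0.05. Lhx8, Lhx3 and Lhx4 are filled under each setting in which they were tested (Lhx4 drops out where a probe had to be well above background on all 6 arrays), with normexp values of -2.17, -1.07 and -0.85 nearest to 0.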

How the data were processed

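Total RNA was labelled with Cy3 and hybridised to one-colour arrays, per the labels' protocols. The deposited scanner files were written by Feature Extraction 10.7.3.1 (Agilent), per the file headers, and give for each spot a background-subtracted, detrended intensity and the raw median intensities of spot and background. The authors' deposited value table holds log2 values (medians 6.76 to 6.77), for which the sources used here give no scaling, centring or method. They correlate with the log2 scanner signal of the same array at 0.9986 to 0.9999 across probes, so a higher deposited value stands for a higher signal. Fitted on that table, the differences of Lhx8, Lhx3, Lhx4 and Lhx2 were -3.21, -2.24, -2.63 and -0.99.

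Values were log2 of the processed signal minus the array's 75th percentile over non-control spots. Outlier spots (84 to 156 on an array) were dropped, and a probe's remaining spots were averaged. A RefSeq accession gave 1 symbol to 26418 of 39429 probes and several to 0; the other 13011 are unnamed here, so unnamed probes of members may exist. A probe was tested if it was well above background in every array of either group, with values on 5 or more arrays. The 26288 such probes were fitted with limma 3.58.1 in R 4.3.3, with Benjamini-Hochberg adjustment over all of them. Lists used the brightest tested probe of a gene, and other tested probes of Prrx1, Ssbp2, Wnt8b, Hoxb3 and Kdr had the opposite sign. List counts depend on this choice. Another probe was called where the listed one was not for Hoxb3 (-2.00, limma adjusted p of 0.00799) and Kdr (0.76, 0.0217). The same held, without a change of sign, for Barhl1 (-0.72), Neurod1 (-0.80), Ntrk2 (0.76) and Ssbp2 (0.63). For Dcx, Elavl4, Fgf8, Ntrk3, Prrx1 and Sox1 the listed probe was called and another was not. Paralogue pairs used exact permutation tests (scipy 1.17.1). The members and lists were chosen with earlier results of these data known. Named genes are all members, up to 3 called genes of each direction with the smallest p in a partner list, bright markers, and the 5 genes most correlated with Lhx8 and Lhx6; some genes this rule names are not reported here. In one simulation on 26288 probes, 50 probes were changed at each fold. Of these 24 were recovered at 2-fold, 46 at 4-fold, 49 at 8-fold and 0 at 1.5-fold. The share of probes changed there was far below the 18% called in the data. Recovery after adjustment depends on that share, so these rates do not give the sensitivity of the real comparison. Same-numbered arrays shared a slide and scan, per the file headers, and their deviations from the group means correlated at -0.19, 0.20 and 0.27 for replicates 1, 2 and 3; the slide is the replicate block. Alternatives were other backgrounds, scalings, filters, variance models and the deposited table, the block, 1 probe for each gene, a threshold of 0.01 and leaving out each array. Normexp (offset 50) used median signals.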

Additional observations from a re-analysis of the deposited data

How the results depend on the processing

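Lhx8, Lhx3 and Lhx4 were called lower under all of their alternatives run (16, 16 and 15; Lhx4 is not among the probes above background on all 6 arrays), with differences of -3.38 to -2.17, -2.28 to -1.07 and -2.72 to -0.85. Lhx2 was called in 14 of 16, at -1.24 to -0.96, and did not pass a threshold of 0.01. The LIM homeobox probes called numbered 8 with array weights and 3 to 7 when 1 array was left out (7 without wild type replicate 3), and none was called higher under any alternative. Beside the Lhx9 probe named in the report, the replicate block changed no call of a member. Differences near 0 turned sign: the brightest Lhx6 probe was 0.0906 with array weights and -0.207 to 0.0929 with 1 array left out (above 0 without wild type replicate 3 and, at 0.0347, without null replicate 3), Isl2 was 0.0065 with array weights and -0.124 to 0.0745 with 1 array left out (above 0 without wild type replicate 1), and the dimmest Lhx9 probe was 0.0011 with array weights. Lhx3 minus Lhx4 was -0.225 with normexp, and with 1 array left out it was 0.29 to 0.62. On leaving out 1 array Lhx6 minus Lhx8 was 2.74 to 3.27, Isl1 minus Isl2 was -0.88 to -0.65, Lhx2 minus Lhx9 was -1.12 to -0.22 and Lhx1 minus Lhx5 was -0.17 to 0.10. Lhx6 minus Lhx8 was smaller with normexp (2.10) and with the mean of all tested probes of a gene (2.27), where the second Lhx6 probe counts. Isl1 minus Isl2 was -0.55 with normexp. The 4720 probes called across the array (2255 lower, 2465 higher) became 2295 without the filter on dim probes (970 lower, 1325 higher), 14358 with array weights (7403 lower, 6955 higher), 1506 at a threshold of 0.01 (595 lower, 911 higher), and 1847 to 7622 with 1 array left out (785 to 3828 lower, 1062 to 3794 higher). Leaving out any 1 of the 6 arrays moved the total by more than 1.5 times, and the extremes of 1847 and 7622 came without null replicate 1 and without wild type replicate 3. The cause of these shifts was not tested. Among partner lists, cofactors had 0 higher and 0 lower without the filter and 1 higher with the replicate block (0 to 3 higher and 0 to 1 lower with 1 array left out), the first arch 1 higher without the filter (1 to 6 higher, 6 to 7 lower), and the pituitary list 4 higher with normexp, 1 without the filter and 1 with the block (1 to 3 higher, 2 to 6 lower). Ganglion genes ranged from 1 to 3 higher and 3 to 5 lower with 1 array left out. Forebrain genes had 2 higher with normexp and 2 lower with the block (0 to 2 higher, 1 to 3 lower). Signal over background limits the second Lhx6 probe and Lhx4, which were not well above background on all null arrays.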
